A study of Rattus norvegicus with 6 samples.

Results

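The Usher complex and ankle-link genes of the rat vestibular epithelium are described here across animals exposed to streptomycin and their controls. The 7 genes, Myo7a, Ush1c, Ush1g, Adgrv1, Whrn, Pdzd7 and Clrn1, were chosen by name for their role in the hair bundle, and each was taken as the row of the count table that carried its symbol, 7 of 32883 rows in all. RNA was sequenced from the utricles and cristae of Long-Evans rats to ask which transcripts change during chronic aminoglycoside ototoxicity. The STREP group held 3 rats given streptomycin, an aminoglycoside antibiotic, by subcutaneous injection at 500 mg/kg in PBS each day for 6 weeks from postnatal day 21, and the Control group held 3 rats given PBS alone. Each group had 2 males and 1 female, replicate 3 being the female in both, and the tissue was collected on the final day of dosing. Per the labels each library pooled the 2 utricles and 6 cristae of an animal, so the sensory epithelium was sequenced as bulk tissue with all its cell types. The titles of STREP replicates 1 and 2 share a number and differ only in a suffix, whereas the other 4 libraries each have a number of their own. What the number and suffix mark is not given in the sources used here, so these 2 libraries may not be as independent as the rest.

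Hair cells (HCs), the sensory receptors of the inner ear, carry a bundle of actin-filled stereocilia that are tied together by extracellular links. The Usher proteins were named after the human syndromes of combined hearing and vision loss that follow their loss, and they anchor these links to the actin core. The motor myosin VIIa (Myo7a), the PDZ scaffold harmonin (Ush1c) and the scaffold Sans (Ush1g) bind one another and work with the cadherins of the tip link, the filament that gates the transduction channel. The adhesion receptor Adgrv1 forms the ankle links at the base of the developing bundle, where the PDZ scaffolds whirlin (Whrn) and Pdzd7 hold it. Clarin-1 (Clrn1) is a membrane protein needed for bundle integrity and for the HC ribbon synapse.

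Of the 7 genes, Adgrv1 and Myo7a were lower in STREP animals with no overlap between the groups, Adgrv1 by 49.2% and Myo7a by 28.9% of the Control mean. Ush1c, Whrn, Pdzd7 and Clrn1 did not pass the test, and Ush1g was too low to measure. With DESeq2, 2 of the 7 passed the Benjamini-Hochberg adjusted p threshold of 0.05, both in the lower direction, against 1.62% of the 16250 genes tested. A gene was called when it also changed by more than 1.5-fold, which left 1 of the 7, Adgrv1, against 1.37% of all genes called lower and 3.24% called in either direction. No gene of the 7 was called higher. The log2 fold change (STREP over Control) was below zero in 6 of the 7, against 7969 of the 16250 genes tested. The 6 include Ush1g, too low to measure, and Pdzd7 at -0.08. The median was -0.46 against 0.01 over all genes tested. In bulk tissue, fewer HCs and less of a transcript per HC cannot be told apart.

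Library totals ran from 48568191 to 59906048 counts in Control and from 29333584 to 33744909 in STREP animals, so depth separated the groups completely. Values are given below as normalised counts, which are counts divided by the DESeq2 size factor of the library. All 14 HC markers examined had counts in every library, with summed levels of 107990.0 to 119124 normalised counts in Control and 84322 to 100511 in STREP animals. The 12 supporting cell markers summed to between 497566 and 621143 in Control and to 584809, 646077 and 1019104 in the STREP animals, highest in STREP replicate 3. Most of each sum was Otog, 1 of the 12, which alone gave 729507 in STREP replicate 3. The sums therefore follow that gene and do not show a shift of the whole list. The part of these HC and supporting cell markers in the changes described here was not tested.

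**Figure D1:**
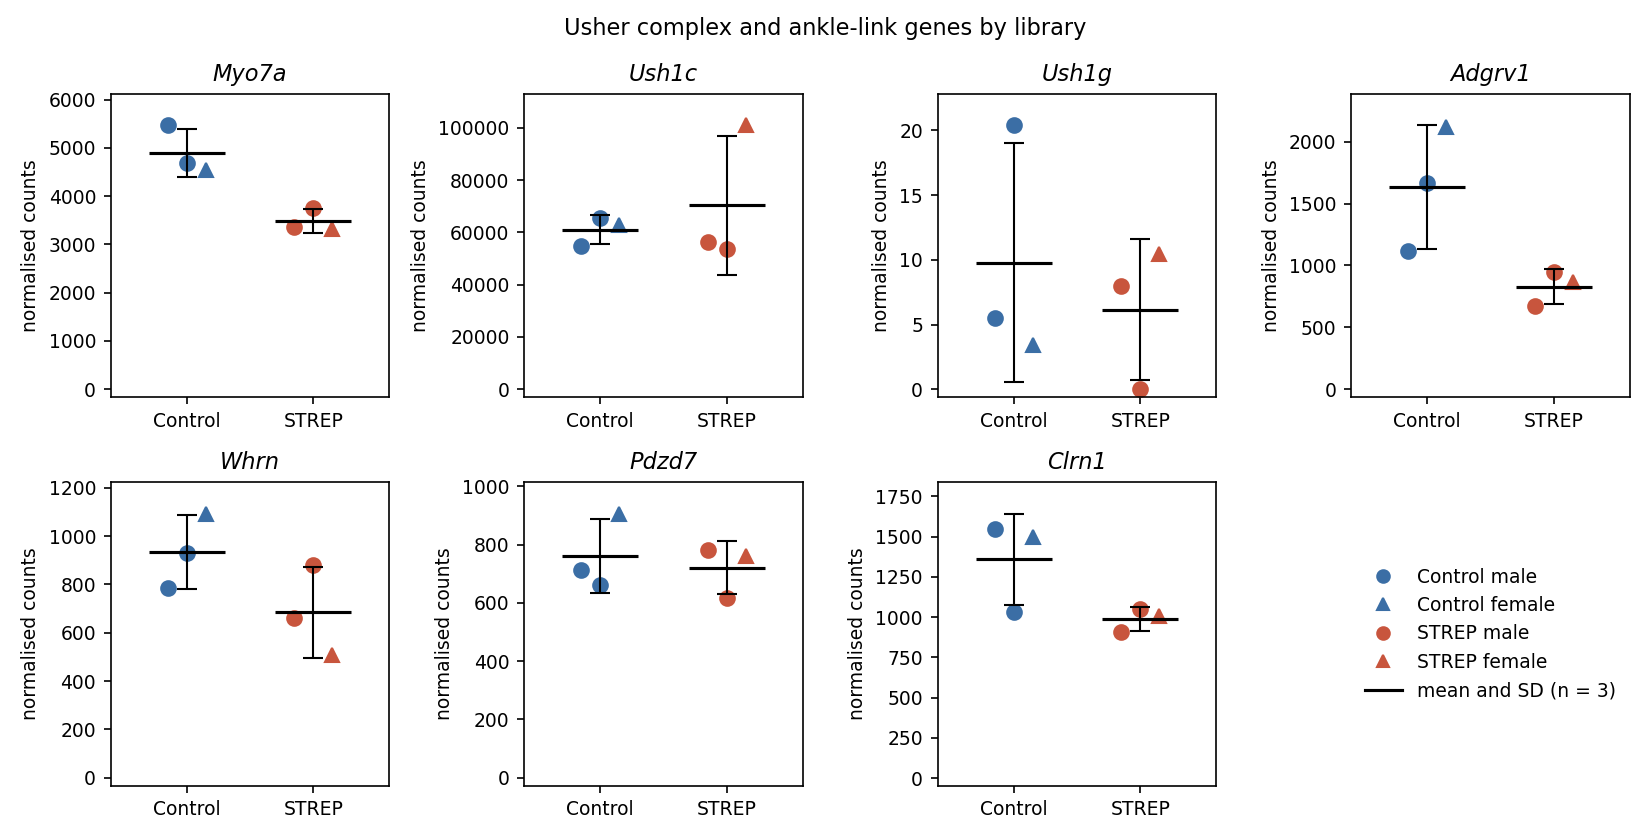
Normalised counts (vertical axis) of each of the 7 genes in the 3 Control (blue) and 3 STREP (red) libraries, with circles for males, triangles for females, and lines for the mean and SD. The STREP points of Myo7a and Adgrv1 all lie below the Control points, the Ush1c points of both groups mix apart from the STREP female at 101030, and Ush1g stays at or below 20.4 normalised counts.

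For the 2 genes that passed the test and for Ush1c, the 250 bases before the transcription start are shown to give the regulatory sequence next to the values. The sequences are RefSeq's, on rat assembly GRCr8, read 5′ to 3′ on the gene's strand, and 6 of the 7 genes had an entry. Where a gene had several starts, only the window of the most upstream was used, here and in the shares over all promoters. The other starts of Adgrv1 were not searched. Capitals mark matches to CANNTG, the E-box core that basic helix-loop-helix factors such as the HC factor Atoh1 recognise. Adgrv1, whose window is chr2:13647408-13647657 on the minus strand and which has 3 starts in the table, is given first, followed by Myo7a at chr1:161818578-161818827 (minus strand) and Ush1c at chr1:105880083-105880332 (minus strand).
Adgrv1: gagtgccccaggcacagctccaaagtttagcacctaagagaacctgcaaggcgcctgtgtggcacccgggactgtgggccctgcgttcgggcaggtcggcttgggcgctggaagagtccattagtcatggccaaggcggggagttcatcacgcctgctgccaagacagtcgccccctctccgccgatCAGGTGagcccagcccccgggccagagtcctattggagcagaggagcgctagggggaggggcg
Myo7a: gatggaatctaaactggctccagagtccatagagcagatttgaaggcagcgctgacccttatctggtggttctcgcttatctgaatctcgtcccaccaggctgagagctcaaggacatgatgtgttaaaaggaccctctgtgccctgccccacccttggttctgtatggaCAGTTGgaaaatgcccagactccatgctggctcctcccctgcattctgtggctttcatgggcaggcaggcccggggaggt
Ush1c: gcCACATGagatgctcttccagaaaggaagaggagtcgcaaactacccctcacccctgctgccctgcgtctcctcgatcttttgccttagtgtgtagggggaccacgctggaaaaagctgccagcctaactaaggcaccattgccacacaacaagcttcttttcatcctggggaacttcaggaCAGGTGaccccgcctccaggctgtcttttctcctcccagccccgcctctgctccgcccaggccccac

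Adgrv1 and Myo7a held 1 match each and Ush1c 2, in windows with a GC content of 65.6%, 54.8% and 58.4%. Pdzd7 and Clrn1 also held 1 CANNTG match each, while Whrn held 0. Matches were common everywhere, since 65.2% of the 27457 promoters of the same length held at least 1 on either strand. The motif TGATGNAA, the amino acid response element read by the stress factor Atf4 with C/EBP partners, searched on both strands, was found once each in Pdzd7 and Clrn1 and in 3.28% of all promoters. It was absent from the windows of Myo7a, Ush1c, Adgrv1 and Whrn. A match describes the letters of the window and is no evidence of binding.

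Adgrv1 encodes the very large adhesion G protein-coupled receptor whose extracellular part makes up the ankle links. Its level (ENSRNOG00000016306) was 1114 normalised counts in Control replicate 1, 1667 in replicate 2 and 2115 in replicate 3, against 672, 947 and 868 in the STREP animals. The highest STREP value lay below the lowest Control value, and the Control animals were spread more widely, with a coefficient of variation of 30.7% against 17.0% in STREP animals. The group means were 1632 ± 501 for Control and 829 ± 141 for STREP (SD, n = 3), a log2 fold change of -0.98 with a standard error of 0.25 and a DESeq2 adjusted p of 0.0036. Absence of overlap in the lower direction was found in 8.63% of all genes tested and in 2 of the 7 described here. The call rested on 2 animals: without Control replicate 3 the log2 fold change was -0.75 with a DESeq2 adjusted p of 0.101, and without STREP replicate 1 it was -0.85 with an adjusted p of 0.0708. It also lay near the threshold in edgeR, with a quasi-likelihood adjusted p of 0.0641 with a count filter and 0.0408 without one.

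Whrn encodes whirlin, a scaffold found at the ankle links and at stereocilia tips. Its level (ENSRNOG00000001700) was 787, 929 and 1093 normalised counts in the Control animals and 662, 882 and 510 in the STREP animals. STREP replicate 2 lay inside the Control range and the other two STREP animals below it. The log2 fold change was -0.45, with a 95% interval of -0.92 to 0.02 and a DESeq2 adjusted p of 0.447. The lowest value belonged to the STREP female, whose log2 difference from the Control female was -1.10, against a mean difference of -0.16 in males. The difference between the sexes did not pass the test of the interaction term (DESeq2 adjusted p = 0.871).

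Pdzd7, a paralogue of harmonin and whirlin, is the other scaffold of the ankle-link complex. Its level (ENSRNOG00000032946) was 714, 663 and 906 normalised counts in the Control animals and 783, 619 and 763 in the STREP animals. The groups overlapped over most of their range. The log2 fold change was -0.08, with a 95% interval of -0.48 to 0.32 (DESeq2 adjusted p = 0.968). Without Control replicate 2 it was -0.17 with a standard error of 0.23, so a fall of 1.5-fold was not excluded. Its sign turned positive without Control replicate 3 (0.07) and without STREP replicate 2 (0.02).

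Myo7a encodes the actin-based motor that carries and tensions the transduction apparatus and is widely used as an HC marker. Its level (ENSRNOG00000013641) was 5469, 4687 and 4531 normalised counts in the Control animals and 3368, 3763 and 3313 in the STREP animals. All 3 STREP animals lay below all 3 Control animals, with a coefficient of variation of 10.3% in Control and 7.04% in STREP animals. The means were 4896 ± 502 and 3482 ± 245 (SD, n = 3). The log2 fold change of -0.49 (standard error 0.14) had a DESeq2 adjusted p of 0.0162 but stayed within the 1.5-fold limit, so Myo7a was not called. The study, with DESeq2 and the same limits, lists Myo7a among the genes lower after streptomycin, unlike here. That list holds genes lower both in these samples and in separate rats given another ototoxic compound. It thus rests partly on these samples, so the direction of Myo7a under streptomycin is not independent evidence. The reason for the different call was not tested. The female and male differences were alike in size, at -0.45 and -0.51 on the log2 scale. The adjusted p rose to 0.123 without Control replicate 1 and to 0.111 without STREP replicate 1 in DESeq2, and was 0.0923 with edgeR's quasi-likelihood test and a count filter.

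Ush1c encodes harmonin, the scaffold that anchors the upper end of the tip link, and it had 42440 to 89216 counts in a library before scaling. Counts depend on transcript length, which the table does not give, so levels were not compared between genes, and the ratios of 2 genes given below are compared only between libraries. The level of Ush1c (ENSRNOG00000021149) was 54752, 65375 and 62785 normalised counts in the Control animals and 56504, 53740 and 101030 in the STREP animals. STREP replicate 3 was above every other animal, STREP replicate 1 lay within the Control range and STREP replicate 2 just below it. The log2 fold change was 0.21, with a 95% interval of -0.23 to 0.64 and a DESeq2 adjusted p of 0.839. Without STREP replicate 3 it was -0.14, and with males alone -0.13, so its direction was set by that animal. The log2 fold change in the female pair exceeded that in males by 0.81 (standard error 0.26), which did not pass after adjustment over all genes (DESeq2 interaction adjusted p = 0.245).

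Next to Ush1c in the RefSeq annotation of GRCr8, on the opposite strand and not overlapping it, lies Otog. This gene encodes otogelin, a protein of the acellular membranes made by supporting cells. The counts were made on the earlier assembly Rnor6.0, and whether Otog and Ush1c overlap in the annotation used there was not examined. Otog was examined beside Ush1c after the counts had been seen. Its level was 334983, 389779 and 410468 normalised counts in the Control animals and 452183, 425664 and 729507 in the STREP animals, again highest in STREP replicate 3. The log2 ratio of Ush1c to Otog was -2.61, -2.58 and -2.71 in the Control animals and -3.00, -2.99 and -2.85 in the STREP animals. The ratio did not overlap between the groups and fell by 0.31 from Control to STREP. Its exact permutation p was 0.1 (two-sided), the lowest that 3 animals a group allow. Absence of overlap was common, at 19.6% of all pairs of genes with a mean of at least 100 normalised counts. Whether reads from one locus entered the count of the other was not tested.

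**Figure D2:**
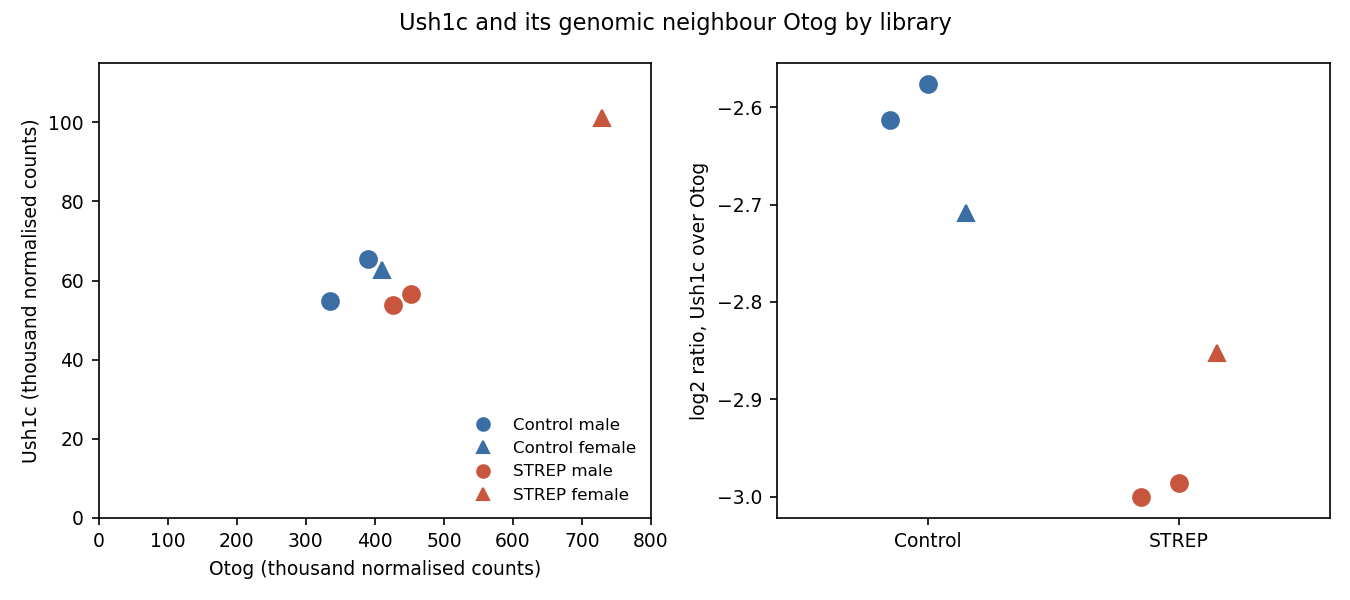
Left, Ush1c against Otog as normalised counts for each of the 6 libraries. Right, the log2 ratio of Ush1c to Otog in each library by group, with circles for males and triangles for females. The STREP female lies far above the other 5 libraries on both axes at left, and at right the STREP ratios, up to -2.85, all lie below the Control ratios, down to -2.71.

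Ush1g encodes Sans, which links myosin VIIa to the tip-link cadherins. The Ush1g row (ENSRNOG00000028456) held 9, 24 and 4 counts in the Control animals and 6, 0 and 7 in the STREP animals before scaling. A count of 0 allows up to 3 counts, which is 3.24 normalised counts in that library. These libraries could not show a difference, since the log2 fold change of -0.68 had a 95% interval of -3.64 to 2.28 (DESeq2 adjusted p = 0.956). The other 6 genes had at least 10 counts in every library.

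Clrn1 encodes clarin-1. Its level (ENSRNOG00000042477) was 1544, 1034 and 1499 normalised counts in the Control animals and 907, 1051 and 1003.8 in the STREP animals. The STREP animals lay close together, and Control replicate 2 fell among them while the other two Control animals were well above. The log2 fold change was -0.46, with an unadjusted 95% interval of -0.85 to -0.07 and a DESeq2 adjusted p of 0.247. The result turned on that Control animal, without which the log2 fold change was -0.63 with an adjusted p of 0.0158, past both thresholds.

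**Figure D3:**
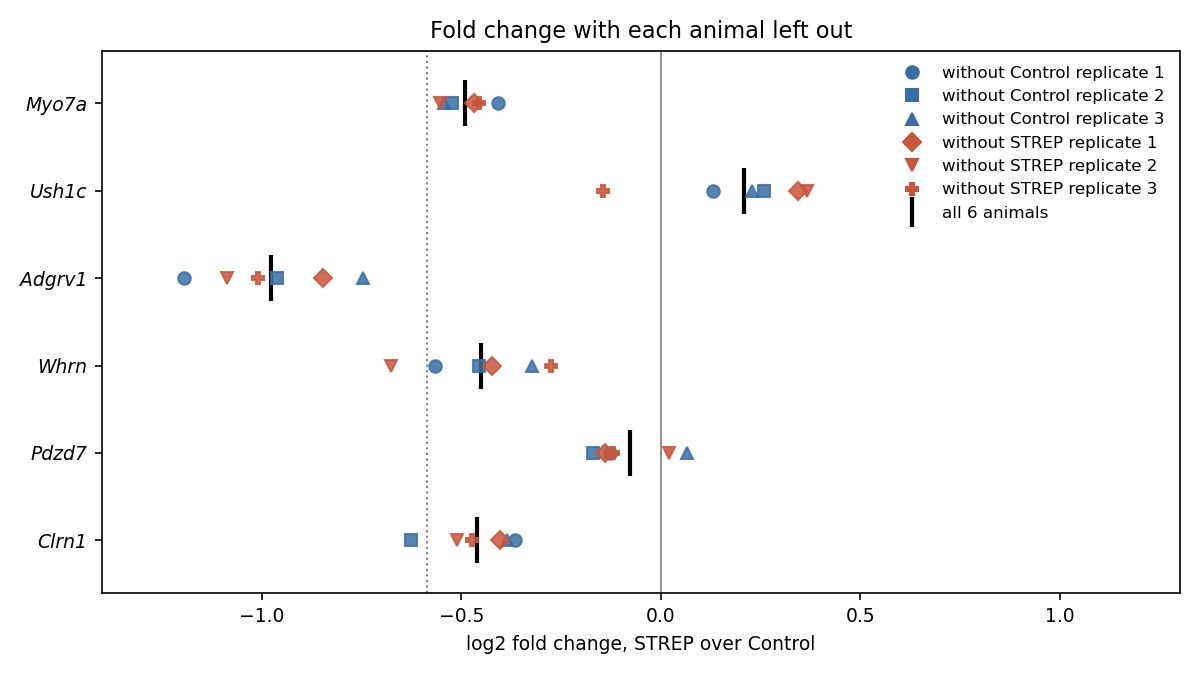
Log2 fold change (horizontal axis, STREP over Control) of the 6 measurable genes with all animals (black bar) and with each animal left out in turn (symbols); the dotted line marks a fall of 1.5-fold. Adgrv1 stays between -1.19 and -0.75 and Myo7a between -0.55 and -0.41, whereas Ush1c and Pdzd7 fall on both sides of zero.

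To set the 7 genes against other HC transcripts of the same library, each was expressed as a log2 difference from the median of 8 HC genes (Pou4f3, Gfi1, Myo6, Otof, Lhx3, Loxhd1, Cacna1d and Tmc1). This reference was 11.87, 11.81 and 11.78 on the log2 scale in the Control animals and 11.39, 11.84 and 11.37 in the STREP animals, a difference of -0.29 with overlapping groups (exact permutation p = 0.3). Its genes did not move together, since Loxhd1 fell by 1.21, Cacna1d fell by 0.80 and Gfi1 rose by 1.20 on the log2 scale (DESeq2 adjusted p = 1.5e-13, 0.00155 and 2.4e-06). Relative to it, Myo7a was lower in STREP animals by a log2 difference of -0.20 without overlap (exact permutation p = 0.1), and 1 of the 7 genes therefore had no overlap, against 21.6% of all genes set against the same reference. This difference was -0.41 against the longer list of 14 HC markers and -0.11 without STREP replicate 2. Adgrv1 was lower by a larger difference of -0.66, but its groups overlapped because Control replicate 1 (-1.75) lay below STREP replicate 3 (-1.60), with an exact permutation p of 0.2, and the difference was -0.42 without Control replicate 3. The corresponding differences were -0.19 for Whrn, -0.15 for Clrn1, 0.21 for Pdzd7 and 0.44 for Ush1c, all with overlapping groups. They were far from stable. Whrn came to -0.05 without Control replicate 3, -0.08 without STREP replicate 3, -0.33 without Control replicate 1 and -0.39 against the longer list. Clrn1 came to -0.05 without Control replicate 3 or STREP replicate 2, -0.08 without Control replicate 1, -0.25 without STREP replicate 3, -0.34 without Control replicate 2 and -0.36 against the longer list. Pdzd7 ranged from 0.081 without STREP replicate 1 to 0.48 without STREP replicate 2, and was 0.0088 against the longer list. Ush1c ranged from 0.060 without STREP replicate 3 to 0.75 without STREP replicate 2, and was 0.23 against the longer list.

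Ratios within a complex were taken for 6 pairs of genes in each library, and 2 pairs had no overlap between groups, against 19.6% of all pairs of genes with a mean of at least 100 normalised counts. Myo7a relative to its partner Ush1c was lower by a log2 difference of -0.64 in STREP animals, and Adgrv1 relative to Pdzd7 by -0.87 (exact permutation p = 0.1 for each). Without STREP replicate 3 the first of these was -0.31, while the second ran from -1.08 to -0.66 with 1 animal left out. The log2 ratio of Adgrv1 to Pdzd7 was 0.64, 1.33 and 1.22 in the Control animals and -0.22, 0.61 and 0.19 in the STREP animals, so the gap between the groups was narrow. The ratios of Adgrv1 to Whrn, at -0.47, and of Whrn to Pdzd7, at -0.40, overlapped (exact permutation p = 0.2 and 0.4). The latter came to -0.16 without STREP replicate 3 and -0.71 without STREP replicate 2. The pairs with Ush1g rest on its few counts and carry no reading.

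Other genes of the Usher network, 16 in all, were tested in the same DESeq2 fit. Of these, 2 passed in the lower direction, against 1.62% of all genes tested, and 0 in the higher. In all, 11 were below zero, against 7969 of the 16250 genes tested, with a median log2 fold change of -0.20. Cib2, a calcium-binding protein of the transduction complex, fell from a Control mean of 2081 ± 213 to a STREP mean of 1380.1 ± 132 normalised counts (SD, n = 3, log2 fold change -0.59, DESeq2 adjusted p = 0.00737). Twf2, an actin-regulating twinfilin of stereocilia, fell by 0.42 on the log2 scale (DESeq2 adjusted p = 0.0414), short of the 1.5-fold limit. Without Control replicate 1 or STREP replicate 1 the DESeq2 adjusted p of Cib2 was 0.0810 or 0.0776, and without STREP replicate 3 its log2 fold change of -0.56 missed the fold limit. Twf2 passed with 1 animal left out only without STREP replicate 3, the other DESeq2 adjusted p-values lying between 0.0968 and 0.195. Under edgeR's quasi-likelihood test with a count filter neither passed, with adjusted p-values of 0.0606 and 0.139. The network genes with the highest counts, Espn (espin, an actin bundler) and Gnai3 (a G protein of bundle polarity), had log2 fold changes of -0.21 and 0.18 and did not pass.

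The tip-link cadherins, which are named for their role and outside the rule for naming genes, did not pass the test (DESeq2). Their log2 fold changes were 0.45 for Cdh23 (95% interval -0.02 to 0.91) and 0.03 for Pcdh15 (-0.72 to 0.77).

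Of 6 genes of stereociliary links, 2 were called lower, against 1.37% of all genes tested, and 0 higher. Strc encodes stereocilin, of the horizontal top connectors. It was 782, 1135 and 849 normalised counts in the Control animals and 379, 566 and 139 in the STREP animals. The groups did not overlap, and the log2 fold change was -1.35 (standard error 0.38, DESeq2 adjusted p = 0.0151). Ptprq, the phosphatase of the shaft connectors, fell by 0.60 on the log2 scale (DESeq2 adjusted p = 0.0254). The study picked Ptprq partly on these samples as an HC gene that falls, so its direction is not independent evidence. With edgeR's quasi-likelihood test and a count filter the adjusted p was 0.153 for Strc and 0.246 for Ptprq, and neither passed. In DESeq2, Strc lost its call without Control replicate 1, 2 or 3 (adjusted p = 0.0525, 0.225 and 0.0831) or STREP replicate 1 (0.0833), and Ptprq without Control replicate 2 or 3 (0.267 and 0.191) or STREP replicate 1 or 2 (0.211 and 0.0530). Vezt, which encodes vezatin, an ankle-link protein that binds myosin VIIa, had a log2 fold change of -0.09 and did not pass.

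**Figure D4:**
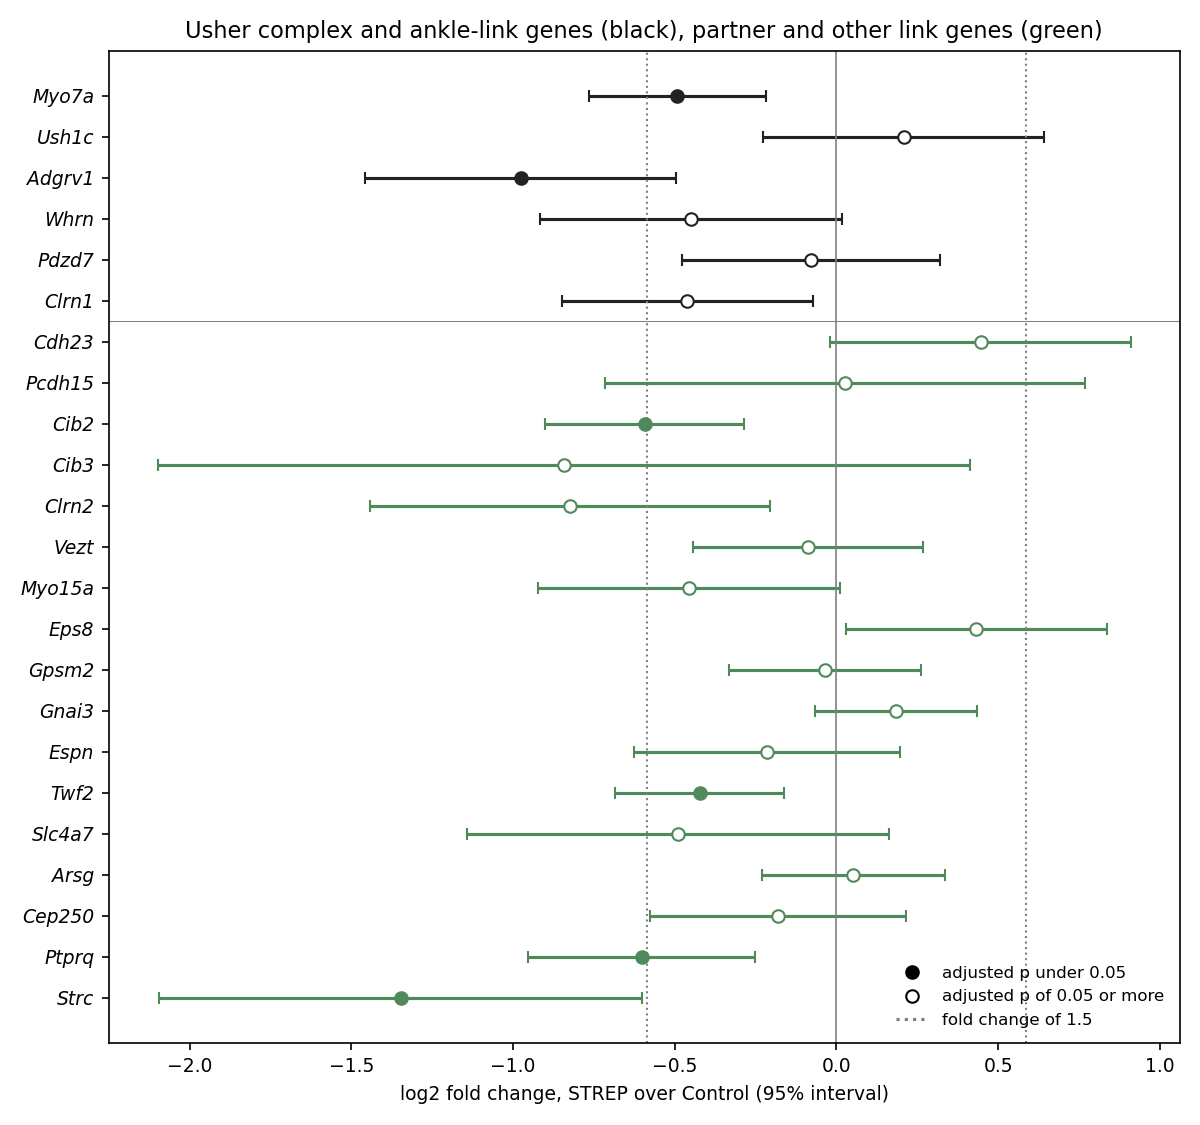
Log2 fold change (STREP over Control) with its unadjusted 95% interval for the 6 measurable Usher complex and ankle-link genes (black) and for partner and other link genes (green). Filled points passed the DESeq2 adjusted p of 0.05 and dotted lines mark a 1.5-fold change. The filled points, Myo7a, Adgrv1, Cib2, Twf2, Ptprq and Strc, all lie below zero.

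The intestinal counterparts of the complex were at or near the detection limit, apart from Cdhr2. Myo7b and Anks4b, the brush-border relatives of Myo7a and Ush1g, stayed at or below 19.6 and 15.3 normalised counts, and Cdhr5 at or below 3.40. Cdhr2 ranged from 279 to 528 and had a log2 fold change of 0.04. None of the 3 genes tested passed (DESeq2).

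Among the 14 HC markers, 4 were called lower and 1 higher, with a median log2 fold change of -0.23. Of all genes tested, 1.37% were called lower and 3.24% in either direction. Beside Loxhd1, Cacna1d, Gfi1 and Ptprq above, Xirp2, an actin-binding protein of stereocilia, fell by 0.75 on the log2 scale (DESeq2 adjusted p = 3.0e-05), and it also belongs to the genes the study picked partly on these samples. Otof, the otoferlin of the HC synapse, had a log2 fold change of -0.17 and did not pass. Of the 12 supporting cell markers, 2 rose, Notch1 by 0.92 and Sox10 by 0.95 on the log2 scale (DESeq2 adjusted p = 3.2e-06 and 0.000104), and 0 fell. Over all 16250 genes tested, 342 passed in the higher direction. Notch1 is also among the genes the study lists as raised in these samples. Gjb6, the connexin 30 of supporting cells, had a log2 fold change of -0.08. The part of these markers in the levels of the 7 genes was not tested.

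The genes with the most similar pattern to each of the 7 were ranked by Pearson r of log2(normalised count + 1) over the 6 libraries, among 12130 genes with a mean of at least 100 normalised counts. The 6 points share depth and group, and an r of at least 0.9 was reached by 51 to 374 genes for each measurable member, so these names describe the libraries only. Adgrv1 was followed most closely by Plekho1 (r = 0.989), Resp18 (0.988) and Kctd15 (0.985), and Myo7a by St3gal1 (0.998), Adamts5 (0.994) and Pcsk6 (0.992). Ush1c was closest to Rpl15 (0.997), Paip2 (0.996) and RT1-A1 (0.992). Whrn was closest to Sptan1 (0.994), Pdzd7 to Aass (0.997) and Clrn1 to Rnaseh2a (0.985). Between the 7 genes themselves the highest values were 0.80 for Myo7a with Clrn1 and 0.79 for Adgrv1 with Whrn. Myo7a with Adgrv1 gave 0.66 over all libraries and -0.54 after the group means were removed.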

How the data were processed

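Polyadenylated RNA was amplified with the SMARTseq2 protocol from 6 to 11 ng of total RNA per animal, and the libraries carry no strand mark and no molecular identifiers. Alignment by the authors was to Rnor6.0 with STAR 2.5.3a, followed by gene-level quantification with RSEM 1.3.0 (versions per the submitters' processing notes), and the authors deposited a table of expected counts, the estimated reads per gene, not scaled between libraries. RSEM apportions reads between near-identical gene copies, whose values are therefore uncertain. Rounding to whole numbers altered 0 of the deposited values. Of 32883 genes, 18705 had a count, and 3970 rows repeated a symbol.

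Groups and sexes were taken from the labels. The 6 libraries belong to 1 experiment of the study, and whether they were sequenced as 1 batch is not given in the sources used here. Replicates were numbered by accession and the numbers pair no libraries. All 6 titles differ, but STREP replicates 1 and 2 share a number in theirs, so p-values measure the spread between 3 libraries a group, part of which may not be between unrelated animals. The model was fitted to all genes with DESeq2 1.42.0 (R 4.3.3), with median-of-ratios size factors and group as its only term, and tested by the Wald test with an independent filter set for 0.05. A gene was called at a Benjamini-Hochberg adjusted p-value under 0.05 and a fold change over 1.5. Ratios within a library used log2(normalised count + 1) and the exact two-sided permutation test over animals, which cannot go below 0.1 here. Intervals are 95% and unadjusted, and the floor of 3 counts covers counting error only. The procedure was tested on simulated data, in which DESeq2 made a larger share of false calls than its nominal threshold and edgeR a share close to it, so DESeq2 adjusted p-values near the threshold are to be read with the edgeR values beside them.

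The 7 genes and the gene lists were chosen with earlier results of these data known. From each list the text names the genes that passed the adjusted p-value, at most the 6 largest changes, and the 2 with the highest mean count. Named beyond that rule, after their values were seen, were Cdh23, Pcdh15, Myo7b and Cdhr5. Results for some genes of the lists are not reported here. Alternatives were the quasi-likelihood test of edgeR 4.0.16, with or without filtering on counts, and DESeq2 with TMM or library totals as size factors, with genes of under 10 counts in 3 libraries dropped, without the independent filter, with a sex term, on males only, with other fold limits, on libraries thinned to the smallest total and without each animal in turn. Ratios were recomputed with other pseudocounts, CPM and other HC references. The ratio of Ush1c to Otog was added after the data had been seen. Promoter windows were RefSeq's on GRCr8, a later assembly than that of the counts. Protein sequences and coordinates on Rnor6.0 were not used here.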

Additional observations from a re-analysis of the deposited data

How the results depend on the processing

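Adgrv1 kept its direction in every alternative and lost its call in 3 beside the animals left out: edgeR with a count filter (-0.98, adjusted p = 0.0641), males alone (-0.78, DESeq2 adjusted p = 0.118) and the 1.5-fold limit placed inside the Wald test (-0.98, DESeq2 adjusted p = 1). Myo7a (-0.49) passed once the fold limit was dropped, and its DESeq2 adjusted p was 0.486 with library totals as size factors and 0.0765 with males alone. With males alone the sign turned for Ush1c (-0.13) and Pdzd7 (0.022). Leaving out 1 animal gave -0.55 to -0.41 for Myo7a, -0.14 to 0.37 for Ush1c, -1.31 to 0.44 for Ush1g, -1.19 to -0.75 for Adgrv1, -0.68 to -0.28 for Whrn, -0.17 to 0.066 for Pdzd7 and -0.63 to -0.36 for Clrn1. The signs turned without STREP replicate 3 for Ush1c (-0.14), without Control replicate 2 for Ush1g (0.44), and without Control replicate 3 (0.066) or STREP replicate 2 (0.020) for Pdzd7. Thinning every library to the smallest total kept the call of Adgrv1 (-0.99, DESeq2 adjusted p = 0.0019). The causes were not tested.

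Over all genes, 527 were called, 223 lower and 304 higher. edgeR with a count filter called 264 (126 lower, 138 higher) and without one 295 (135 and 160), library totals 309 (139 and 170), and the fold limit inside the Wald test 82 (35 and 47). Leaving out 1 animal gave 424 to 517, with 178 to 251 lower and 222 to 322 higher. Relative to HC genes, 1 of the 7 genes had no overlap, against 2 with the longer list of 14 HC genes and 1 to 3 with 1 animal left out. The count of pairs without overlap was 2 and ran to 3 with 1 animal left out. No paired analysis was possible because the labels carry no replicate numbers, and those used here follow the accessions.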

Other observations

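Markers of the other cell types in the pooled epithelium were tested in the same DESeq2 fit. Over all 16250 genes tested, 263 passed in the lower direction and 342 in the higher. Of 7 neuronal markers 1 passed, Tubb3, a neuronal tubulin, which rose by 1.28 on the log2 scale (DESeq2 adjusted p = 0.0182), while Nefl and Nefm, the neurofilaments with the highest counts, had log2 fold changes of -0.29 and -0.17 and did not pass. Of 6 glial markers 1 passed, Prx, the periaxin of myelinating Schwann cells, which fell by 0.68 (DESeq2 adjusted p = 0.0425), and Mbp, a myelin gene with high counts, had a log2 fold change of -0.59 and did not pass. Of 5 dark cell markers 1 passed, Slc12a2, the sodium, potassium and chloride cotransporter that feeds endolymph secretion, which fell by 0.55 (DESeq2 adjusted p = 0.0035), short of the 1.5-fold limit. None of the 7 macrophage, 5 mesenchymal, 3 endothelial and 3 melanocyte markers tested passed.

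Notch1 and Sox10 passed in edgeR with a count filter and with each animal left out. In edgeR's quasi-likelihood test with a count filter the adjusted p was 0.130 for Tubb3, 0.198 for Prx and 0.155 for Slc12a2. With 1 animal left out, Tubb3 no longer passed in DESeq2 without Control replicate 1 (adjusted p = 0.128), Control replicate 2 (0.136), STREP replicate 1 (0.1005) or STREP replicate 3 (0.191). Prx no longer passed without Control replicate 1 (0.262), 2 (0.243) or 3 (0.0564) or without STREP replicate 2 (0.228) or 3 (0.183), and Slc12a2 without Control replicate 2 (0.0564).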
